A study of Mus musculus with 4 samples.

Results

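The 10 genes described here encode transcription factors that shape endothelial identity. They comprise the SoxF genes Sox7, Sox17 and Sox18, the orphan nuclear receptor genes Nr2f2 and Nr2f1, the haemato-endothelial regulators Gata2, Tal1, Lyl1 and Lmo2, and Mef2c. They were taken by gene symbol from a table of normalised read counts for retinal endothelial cells (ECs), in which all 10 symbols were present among 26822 genes.

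SoxF proteins bind DNA through an HMG box and act in part redundantly in ECs, with Sox17 best known for its role in arteries and Sox18 for the start of lymphatic development. Nr2f2, also called COUP-TFII, is needed for vein identity and restrains Notch signalling in venous ECs. Tal1 and Lyl1 are related basic helix-loop-helix factors that pair with E proteins and join Lmo2, Ldb1 and a GATA factor in a complex known from blood progenitors and ECs, and Mef2c is a MADS-box factor held in check by class IIa histone deacetylases.

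The ECs came from C57BL/6J pups at postnatal day (P) 6, when the retinal vessels are still growing outwards. Retinas were handled as pairs and dissociated with collagenase, and living cells that carried CD31, a surface protein of ECs, but not CD45, a surface protein of leukocytes, were collected by flow sorting. The 4 polyadenylated RNA libraries form 1 group whose treatment is given as control, with no allele, agent or second tissue, so the design allows comparisons between genes within the same libraries only. The study calls its 4 P6 retinal EC samples independent. No source used here states whether each library came from its own animal or litter. The p-values thus measure the spread between these 4 samples, which may be technical. The labels' account of RNA isolation names human umbilical vein ECs and may have been written for other samples. The sort did not separate arterial, venous, capillary and tip cells.

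Library totals lay between 14843847 and 15017241 normalised counts, and 15012 genes averaged 10 or more, termed detected below. How many reads lie behind a value is not known, and values near the minimum may rest on few reads, since 560 genes stood at exactly 9 in library 1 and 728 to 751 genes at exactly 6 in each of the other libraries. All 16 endothelial marker genes were detected, and 15 averaged 1000 or more. Library 4 stood somewhat apart, with correlations of log2 values across genes of 0.960 to 0.965 to the other libraries, against 0.970 to 0.974 among those. The summed photoreceptor markers were 5109, 5890, 4766 and 13741 in libraries 1 to 4 and the summed pericyte and smooth muscle markers 2049, 586, 2246 and 3801, each highest in library 4. In such bulk RNA, fewer cells of a type and less RNA per cell cannot be told apart.

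All 10 factors were detected, as were 56.0% of all genes, and 7 of the 10 averaged 1000 or more, as did 19.7% of all genes and 35.2% of detected genes. The exceptions were Tal1, Lyl1 and Nr2f1. Because longer transcripts give more reads, levels of different genes were compared as normalised counts per exonic base, that is, after division by the union of annotated exons. On this scale the order was Sox18, Lmo2, Sox7, Sox17, Gata2, Mef2c, Nr2f2, Tal1, Lyl1 and Nr2f1, with levels of 1.70 at the top and 0.00293 at the bottom, where the median detected gene had 0.161. The values of all 9 neighbours in this order, and of all 45 pairs of the 10 factors, did not overlap between genes (exact two-sided permutation test, 4 values against 4, p = 0.0286 for each pair, the smallest of 70 splits; adjusted p = 0.0321 over all pairs of detected genes). This is a low bar, since 89.0% of all pairs of detected genes also did not overlap, so the sizes of the differences are given below rather than the number of pairs. The test sets 4 values against 4 although both genes were measured in the same libraries, and a sign-flip test that pairs the values by library cannot reach 0.05 with 4 libraries, so that no pair of genes in this text passes it. The order also depends on the length used. With the longest annotated transcript in place of the exon union, 7 of 9 neighbours and 43 of 45 pairs did not overlap, and Lmo2 stood above Sox18, at 1.75 for Lmo2 and 1.70 for Sox18, with overlapping values. Not divided by length, 44 of 45 pairs did not overlap, against 88.6% of all pairs, but 8 of the 45 turned. There Sox18 lay below Lmo2, Sox7, Sox17 and Mef2c, Lmo2 below Sox7, Sox17 and Mef2c, and Gata2 below Mef2c, with log2 differences from -0.12 for Sox18 over Lmo2 to -0.77 for Sox18 over Sox7.

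**Figure D1:**
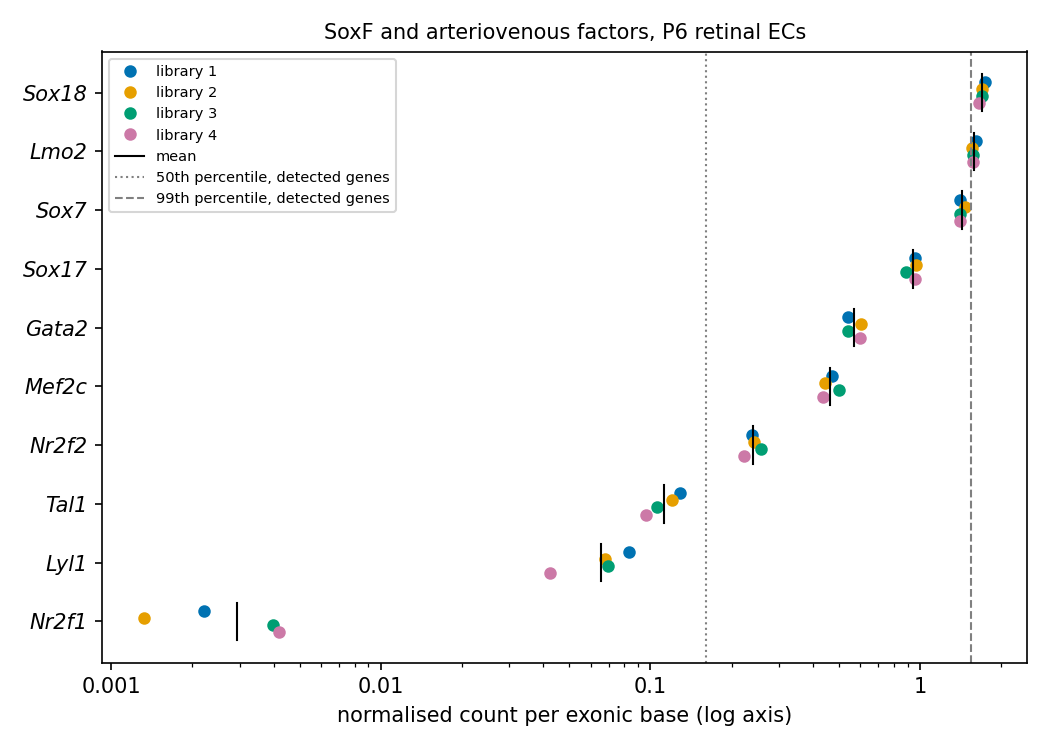
Normalised count per exonic base (log axis) of each of the 10 factors in the 4 libraries (coloured points) with the mean (black line), beside the 50th and 99th percentile of detected genes (grey lines). Sox18 and Lmo2 lie beyond the 99th percentile at 1.546, Sox7 just under it, and Tal1, Lyl1 and Nr2f1 below the median at 0.161.

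The SoxF genes held 3 of the 4 highest levels per exonic base among the 10 factors. Sox18 (ENSMUSG00000046470, chr2:181669836-181671640, minus strand, GRCm38) had 2829, 2747, 2747 and 2685 normalised counts in libraries 1 to 4, a mean of 2752 ± 59.1 (SD, n = 4 libraries). Its libraries lay within 1.054-fold of each other. Its exons span only 1620 bases, which put it at 1.70 ± 0.0365 per exonic base and at the 99.55th percentile of detected genes. Of 568 detected genes annotated with DNA-binding transcription factor activity, Sox18 ranked 2nd per base, behind the ETS factor gene Ets1 at 1.87.

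Sox7 (ENSMUSG00000063060, chr14:63943673-63950732, plus strand), which encodes a SoxF factor also expressed in early endoderm, had the highest deposited value of the 10 genes. Its libraries stood at 4655, 4830, 4656 and 4644, with a mean of 4696 ± 89.3 and a level of 1.42 ± 0.0271 per base over 3299 exonic bases. Library 2 was the highest, and the other 3 were almost equal. Sox17 (ENSMUSG00000025902, chr1:4490931-4497354, minus strand) stood at 3917, 3960, 3640 and 3927, a mean of 3861 ± 148.5. Here library 3 was the lowest and the other 3 lay close together. Over an exon union of 4096 bases Sox17 reached 0.943 ± 0.0363 per base, the 92.03rd percentile of detected genes.

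Per exonic base Sox17 was thus the lowest SoxF gene. Sox17 was 0.555-fold of Sox18 (log2 difference -0.85 ± 0.06, SD of the 4 libraries) and 0.662-fold of Sox7 (log2 difference -0.60 ± 0.05), and Sox7 was 0.838-fold of Sox18 (log2 difference -0.26 ± 0.04). Each difference had the same sign in 4 of 4 libraries (exact permutation test, p = 0.0286 each). The choice of length decides part of this order: not divided by length, Sox17 lay above Sox18 (log2 difference 0.49) and so did Sox7 (0.77), while Sox17 stayed below Sox7. The scale was also narrow at its top, where the 99th and 99.9th percentile of detected genes were 1.546 and 1.923, and where Actb (beta-actin) had 1.71 and the endothelial tight junction gene Cldn5 1.83. Whether duplicate reads were removed is not given in the sources used here.

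None of the 3 SoxF genes shared a stretch of 75 exonic bases, the read length, with another SoxF gene. The exons of Sox17 shared 17.0% of such stretches with Gm37587, a processed transcript on the opposite strand that stood at 62, 45, 24 and 48. These values were small beside those of Sox17, and both genes were lowest in library 3. The libraries were made with a stranded kit, but the strand setting of the count is not given in the sources used here.

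Other Sox genes were mostly lower. Of the 16 Sox genes listed outside SoxF, 12 were in the table and 11 were detected, and 4 averaged 1000 or more. Sox18 and Sox7 exceeded all 11 per exonic base without overlap, but not divided by length Sox18 lay below Sox4 (log2 difference -0.69) and Sox13 (-0.55). Sox17 exceeded 9 of the 11. On this scale 89.0% of all pairs of detected genes did not overlap. Its values overlapped with those of Sox4, a SoxC factor, at 0.943 against 0.923 per base (log2 difference 0.03 ± 0.04, exact permutation test, p = 0.371), and it lay below Sox13, a SoxD factor, at 0.943 against 1.08 per base (log2 difference -0.19 ± 0.07, p = 0.0286, exact permutation test). With the longest transcript as length Sox17 lay on the other side of Sox13 (log2 difference 0.13, values overlapping). Not divided by length, the values of Sox17 and Sox13 also overlapped (log2 difference -0.06, exact permutation test, p = 0.257). Sox17 lay above Sox4 with the longest transcript as length (0.37) and below Sox4 not divided by length (-0.20), both without overlap. Sox13 and Sox4 averaged 4034 ± 209 and 4425 ± 87.9 normalised counts and were the only listed Sox genes outside SoxF near the SoxF levels. Sox12 followed at 0.310 per base, Sox9 at 0.219 and Sox11 at 0.213, so that Sox18, Sox7 and Sox17 exceeded Sox9 by 7.94-fold, 6.65-fold and 4.40-fold. Sox9, a gene of retinal progenitors and Müller glia, varied more between libraries (1003, 762, 676 and 1182) than any SoxF gene. Sox2, Sox3, Sox5, Sox6, Sox8 and Sox30 had means of at most 76.0, and Sox21 stood at 0, 0, 2 and 1.

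**Figure D2:**
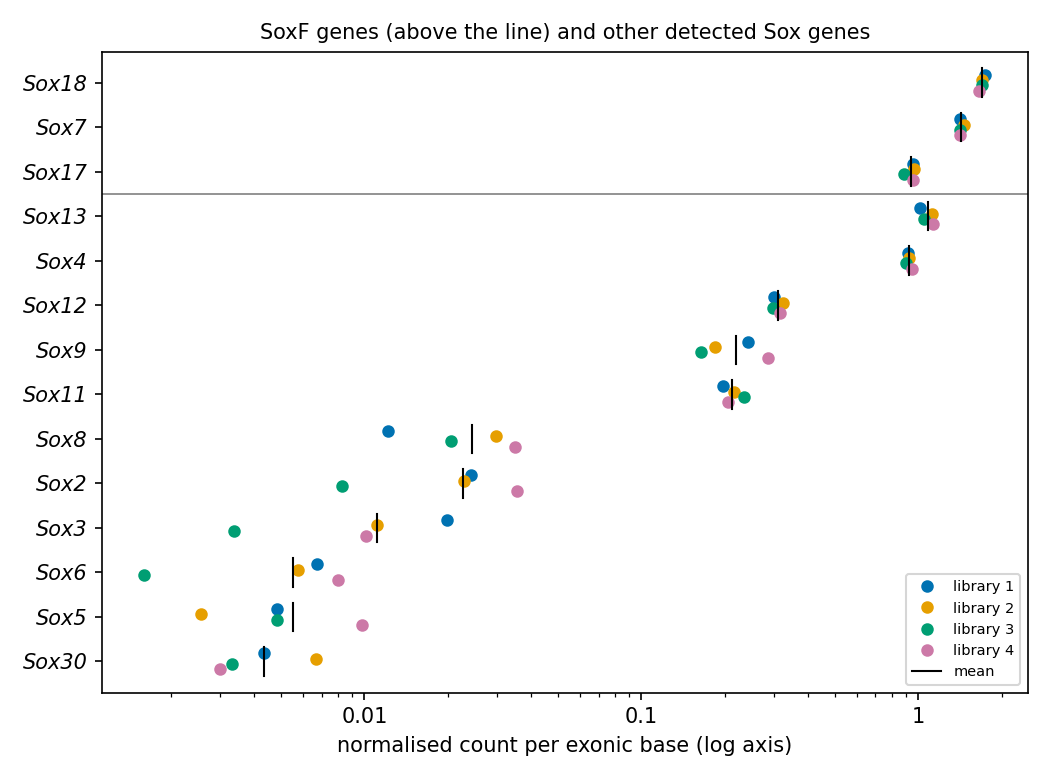
Normalised count per exonic base (log axis) of the SoxF genes (above the line) and the 11 other detected Sox genes (below it) in each library (coloured points), with the mean (black line). Sox13 at 1.08 and Sox4 at 0.923 lie at the level of Sox17 at 0.943, and the remaining Sox genes are at 0.310 or lower.

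Genes tied to SoxF activity in the vascular literature were largely abundant. All 10 genes of this list were detected and 7 averaged 1000 or more, as did 35.2% of detected genes. Their median was 0.705 per exonic base, against 0.161 for all detected genes. The 16 endothelial markers, some of them also on this list, had a higher median of 1.62. The highest by mean were the VEGF receptor gene Flt1 at 9023 ± 256, the angiopoietin receptor gene Tek at 7981 ± 56.5 and Cdh5, which encodes VE-cadherin, at 5654 ± 158. Prox1, the lymphatic regulator that Sox18 switches on in the embryonic cardinal vein, was named after its values were seen. It stood at 271, 294, 154 and 522, or 0.0370 per base, far below Sox18 in each library. Other lymphatic markers were higher. Of the 8 listed, 7 were detected and 2 averaged 1000 or more, Flt4 at 6209 ± 416 and Mmrn1 at 1795 ± 456. Among detected genes, 35.2% averaged 1000 or more. Prox1 is also a gene of retinal neurons and progenitors, and its highest value fell in library 4, where the photoreceptor markers were highest. Their part in this value was not tested.

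The COUP-TF pair was the most unequal. Nr2f2 (ENSMUSG00000030551, chr7:70351944-70366735, minus strand) had 1155, 1182, 1253 and 1084 normalised counts, a mean of 1168 ± 69.9. Library 3 was highest and library 4 lowest, within 1.156-fold. Its level was 0.240 ± 0.0144 per base over 4865 exonic bases, at the 58.47th percentile of detected genes. Nr2f1 (ENSMUSG00000069171, chr13:78188973-78199757, minus strand), which encodes COUP-TFI, a factor of the developing nervous system, was near the detection minimum. It stood at 10, 6, 18 and 19, a mean of 13.25 ± 6.29, and the 6 of library 2 is the value shared by 728 genes in that library. Nr2f2 exceeded Nr2f1 by 83.1-fold per base (log2 difference 6.38 ± 0.73, higher in 4 of 4 libraries, exact permutation test, p = 0.0286). With a pseudocount of 10 in place of 1 the log2 difference was 5.60, so its size depends on this setting.

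Nr2f1 had its 2 higher values in libraries 3 and 4 and its lowest in library 2. A830082K12Rik, an antisense gene that overlaps Nr2f1 on the opposite strand, stood at 1, 2, 12 and 13, likewise higher in libraries 3 and 4. The exons of Nr2f1 shared 0.69% of their 75-base stretches with it. The summed pericyte and smooth muscle markers were also lowest in library 2, at 586, and highest in library 4, at 3801. The astrocyte and ganglion cell sums were lowest in library 2 as well, at 96 and 380. They were highest in libraries 1 and 3, at 1161 and 651. Whether other retinal cells contributed to Nr2f1 was not tested. The exons of Nr2f2 shared 11.9% of their 75-base stretches with B130024G19Rik on the opposite strand, which stood at 99, 67, 68 and 103, far below Nr2f2 in each library.

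Among the other NR2 genes, Nr2f2 was in the middle. Nr2f6, which encodes a further COUP-related receptor, averaged 1160 ± 24.7, almost the value of Nr2f2, but over shorter exons, and lay above Nr2f2 per base, at 0.240 for Nr2f2 against 0.523 for Nr2f6 (log2 difference -1.13 ± 0.08). Not divided by length, the values of the 2 genes overlapped (log2 difference 0.0085). Nr2e3, a rod photoreceptor factor, also lay above Nr2f2 per base (log2 difference -1.14 ± 0.74), with 773, 1026, 805 and 2099 normalised counts, the highest in library 4 like the other photoreceptor genes. Not divided by length the values of Nr2f2 and Nr2e3 overlapped, with Nr2f2 higher in 3 of 4 libraries (log2 difference 0.12, exact permutation test, p = 0.857). Nr2f2 exceeded Nr2c1 by 1.29-fold, Nr2c2 by 2.14-fold and the retinal progenitor factor gene Nr2e1 by 9.07-fold. All 10 pairs of Nr2f2 or Nr2f1 with these genes did not overlap (exact permutation test, p = 0.0286 each), and neither did 89.0% of all pairs of detected genes. Nr2f1 was the lower gene in all 5 of its pairs. With the longest transcript as length, the values of Nr2f2 and Nr2c1 overlapped (log2 difference 0.27).

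Venous and arterial markers were present together. All 8 venous markers were detected and 6 averaged 1000 or more, headed by the apelin receptor gene Aplnr at 6481 ± 84.8, Ephb4 at 5950 ± 117 and the amino acid carrier gene Slc38a5 at 3440 ± 50.8. All 14 arterial markers were detected and 8 averaged 1000 or more, headed by Nrp1 at 5874 ± 158, Notch1 at 4812 ± 465 and Dll4 at 3732 ± 313, although Nrp1 and Dll4 are also known from tip cells. Of all detected genes, 35.2% averaged 1000 or more. The median per exonic base was 0.949 for the venous list and 0.320 for the arterial list. Nr2f2, the venous regulator, thus lay below the median of both lists, and Sox17, the arterial regulator, near the venous median. The lists hold different genes, some of them shared with capillary and tip cells, and their medians do not measure how many venous and arterial ECs were sorted.

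Of the haemato-endothelial group, Lmo2 was the highest. Lmo2 (ENSMUSG00000032698, chr2:103957986-103981878, plus strand) encodes a LIM-only adaptor that bridges DNA-binding factors without binding DNA itself. It stood at 3045, 2949, 2984 and 2980, a mean of 2990 ± 40.2, and its 4 libraries lay within 1.033-fold of each other, the narrowest range of the 10 factors. Over 1893 exonic bases its level was 1.58 ± 0.0212, the 99.15th percentile of detected genes. It ranked 5 of the 568 genes annotated with DNA-binding transcription factor activity. Lmo2 exceeded the other LIM-only genes, Lmo4 by 7.01-fold, Lmo1 by 28.6-fold and Lmo3 by 369-fold per base (exact permutation test, p = 0.0286 each). Lmo3 had a mean of 22.0 with 5 in library 2, so its fold rests on few reads. Lmo2 overlaps 4931422A03Rik on the opposite strand, and their exons shared no stretch of 75 bases.

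Gata2 (ENSMUSG00000015053, chr6:88193891-88207032, plus strand), a zinc-finger factor of ECs and blood progenitors, stood at 1987, 2225, 1987 and 2198, a mean of 2099 ± 130. Libraries 2 and 4 were about equally high and libraries 1 and 3 equally low. Its level was 0.570 ± 0.0353 per base over 3683 exonic bases, the 80.36th percentile of detected genes. It was the main GATA gene of these cells, 47.6-fold above Gata6 and 104-fold above Gata3 per base (exact permutation test, p = 0.0286 each). Gata6 and Gata3 averaged 42.2 and 18.0 normalised counts, and Gata1 and Gata4 were below the detection minimum with 0, 1, 0 and 0 and with 0, 0, 9 and 0. Zfpm1, which encodes the GATA cofactor FOG1, averaged 1782 ± 101, at 0.526 per base close to Gata2, whereas its relative Zfpm2 stood at 15, 18, 43 and 16.

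Tal1 and Lyl1 were the low members of this group. Tal1 (ENSMUSG00000028717, chr4:115056426-115071755, plus strand), also called SCL, stood at 551, 515, 453 and 411, a mean of 482.5 ± 62.5, or 0.113 ± 0.0146 per base over 4285 exonic bases. Lyl1 (ENSMUSG00000034041, chr8:84701449-84704940, plus strand), its closest relative, stood at 150, 122, 125 and 76, a mean of 118 ± 30.8, or 0.0657 ± 0.0171 per base over 1800 exonic bases. Both genes were highest in library 1 and lowest in library 4. Tal1 exceeded Lyl1 by 1.74-fold per base (log2 difference 0.80 ± 0.26, higher in 4 of 4 libraries, exact permutation test, p = 0.0286). Not divided by length the log2 difference was 2.05. Of the further relatives, Tal2 stood at 0 in all 4 libraries and the neuronal gene Nhlh2 at 17, 17, 67 and 30. Lyl1 overlaps Nfix, a gene of the opposite strand that stood at 238, 278, 245 and 269, and their exons shared no 75-base stretch.

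RefSeq start sites of Tal1, Lyl1 and Gata2 are set side by side here because the products act in 1 complex while their transcripts lay 5.08-fold (Gata2 over Tal1) and 1.74-fold (Tal1 over Lyl1) apart. Of the 10 factors, 6 matched an entry of the RefSeq promoter table (GRCm38.p6). Each sequence is the 250 bases before the first listed start, on the plus strand, and capitals mark matches on either strand to the letters GATAA (GATA core) or CCGGAA (ETS). The last bases of the Lyl1 window fall inside the gene as the deposited table places it.
Gata2 (chr6:88193641-88193890): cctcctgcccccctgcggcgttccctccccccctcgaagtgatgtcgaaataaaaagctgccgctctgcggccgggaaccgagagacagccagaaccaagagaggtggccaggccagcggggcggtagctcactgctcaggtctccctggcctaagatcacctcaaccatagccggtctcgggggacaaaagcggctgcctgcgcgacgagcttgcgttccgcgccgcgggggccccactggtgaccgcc
Tal1 (chr4:115056176-115056425): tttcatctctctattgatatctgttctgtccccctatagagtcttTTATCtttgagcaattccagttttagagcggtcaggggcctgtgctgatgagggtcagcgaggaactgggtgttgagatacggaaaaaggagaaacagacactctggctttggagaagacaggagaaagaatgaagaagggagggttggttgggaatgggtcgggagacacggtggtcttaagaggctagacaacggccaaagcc
Lyl1 (chr8:84701207-84701456): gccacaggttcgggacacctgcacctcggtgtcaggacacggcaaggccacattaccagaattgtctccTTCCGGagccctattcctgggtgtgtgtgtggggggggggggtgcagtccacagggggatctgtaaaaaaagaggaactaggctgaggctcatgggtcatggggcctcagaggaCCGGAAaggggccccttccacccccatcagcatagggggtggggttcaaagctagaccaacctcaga
The Tal1 window held 1 match to GATAA, which occurs in 22.6% of 32851 promoter windows of this length, and the Lyl1 window held 2 matches to CCGGAA, which occurs in 12.0%. The Gata2 window held neither. ACAATG (Sox, in 10.7% of windows) and CTA followed by TAG at a distance of 4 bases (MEF2, in 3.20%) had no match in the 3 windows, and none of the 4 motifs overlapped another there. The Gata2 window was rich in CG dinucleotides, with 22, against 6 for Tal1, 5 for Lyl1 and a median of 6 over all windows. Tal1 and Gata2 each had a 2nd listed start, and the counts depend on the start taken. Before the 2nd start Tal1 had 16 CG dinucleotides and 0 matches to GATAA, and Gata2 had 24 CG dinucleotides. Which start these cells use was not tested. Such matches describe letters and are not evidence of binding.

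Partner genes of the complex were expressed at uneven levels around those of Tal1, Lyl1 and Lmo2. All 9 listed partners were detected and 6 averaged 1000 or more, as did 35.2% of detected genes. Ldb1, which holds the complex together through Lmo2, averaged 2872 ± 35.2, or 0.666 per base, and its relative Ldb2 2278 ± 120, or 0.875. The stabilising genes Ssbp4, Ssbp3 and Ssbp2 had 1.09, 0.383 and 0.0916 per base. Fli1, an ETS factor that works beside the complex, reached 1.68 per base with 5586 ± 91.9 normalised counts, next to Sox18 and Lmo2, while its relative Erg had 0.264. The corepressor gene Cbfa2t3 had 0.190 per base. Runx1, which acts with Tal1 and Gata2 in blood formation, stood at 9, 12, 6 and 13, at the detection minimum.

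Among the dimer partners of Tal1 and Lyl1, the E protein genes Tcf3, Tcf4 and Tcf12 had 1.34, 0.625 and 0.386 per base, all above Tal1 at 0.113 and Lyl1 at 0.0657. The Id genes, whose products bind E proteins and keep them off DNA, were likewise high, with Id3 at 1.52, Id1 at 1.36 and Id2 at 0.486 per base. Id4 was low, with 177, 29, 156 and 174 normalised counts. In all, 6 of the 7 E protein and Id genes averaged 1000 or more, as did 35.2% of detected genes. The median of the list was 0.625 per base, against 0.161 for all detected genes.

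**Figure D3:**
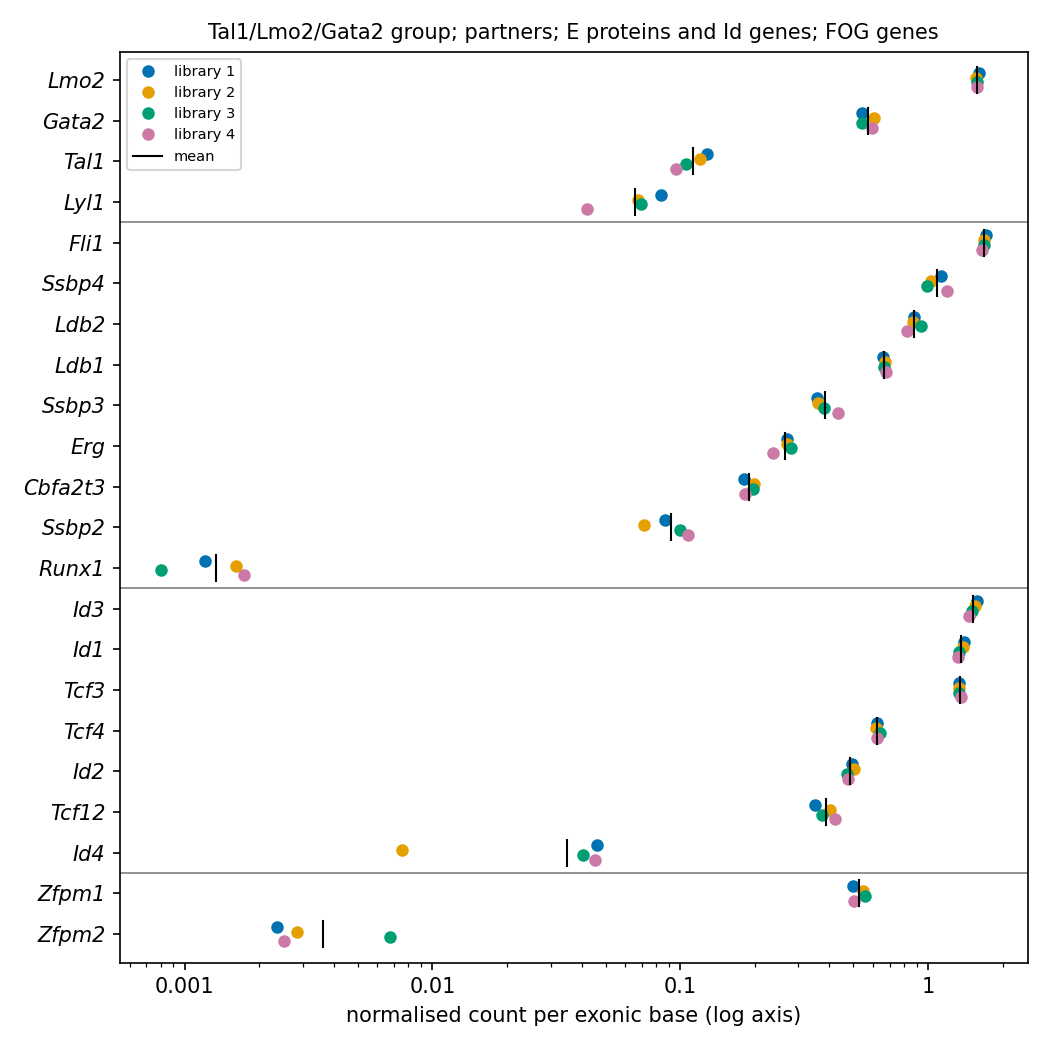
Normalised count per exonic base (log axis) in each library (coloured points, mean as black line) for, from top to bottom, the haemato-endothelial factors, their complex partners, the E protein and Id genes, and the FOG genes. Lmo2 at 1.58 and Fli1 at 1.68 are high, Tal1 at 0.113 and Lyl1 at 0.0657 lie below Ldb1 at 0.666 and the E protein genes, and Runx1 lies at 0.00134.

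Since Gata2, Tal1, Lyl1 and Lmo2 also mark blood cells, markers of those cells were set beside them. Several defining genes of mature blood cells were at or near 0, with Ptprc, which encodes CD45, at 11, 1, 1 and 0, the myeloid factor gene Spi1 at 8, 4, 0 and 0, the erythroid factor genes Gata1 at 0, 1, 0 and 0 and Klf1 at 10, 0, 0 and 0, and the megakaryocyte factor gene Gfi1b at 0, 0, 0 and 1. Of the leukocyte markers 3 of 9 were detected, with sums of 108, 31, 95 and 27, and the highest was Cd68 with a mean of 24.2. Of the erythroid markers 6 of 9 were detected, with sums of 1031, 722, 1440 and 915, headed by the erythropoietin receptor gene Epor at a mean of 542 and the globin gene Hbb-bs at 193. Of the platelet and megakaryocyte markers 2 of 6 were detected, Itga2b at 216 and Pf4 at 57.2, with sums of 279, 288, 255 and 280. Of the 6 listed mast cell and blood progenitor markers 3 were in the table and 2 were detected, Kit at 4807 and Myb at 114. The mast cell gene Ms4a2 stood at 0, 0, 2 and 0, and Cpa3, Tpsb2 and Mcpt4 were not in the table. Kit alone, at 4847, 4694, 5254 and 4434, made up most of the sums of 4956, 4821, 5368 and 4540. In each library Lyl1, at 76 to 150, lay above the leukocyte sum and below the platelet sum. Lyl1 and the leukocyte sum were both highest in library 1 and lowest in library 4, but Cd68 and Cx3cr1 were highest in library 3. Of detected genes, 21.2% were highest in library 1 and 33.0% lowest in library 4. Tal1, at 411 to 551, lay between the platelet and the erythroid sum in each library. The part of blood cells in the values of Lyl1, Tal1, Gata2 and Lmo2 was not tested.

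Mef2c (ENSMUSG00000005583, chr13:83504034-83667080, plus strand) was long and moderately expressed. It stood at 3436, 3237, 3663 and 3179, a mean of 3379 ± 219, which over 7307 exonic bases gave 0.462 ± 0.0300 per base, the 74.83rd percentile of detected genes. Library 3 was the highest and library 4 the lowest. Mef2c was not the main Mef2 gene of these cells per base. It lay below Mef2a, at 0.462 against 0.913 (log2 difference -0.98 ± 0.05), and below Mef2d, at 0.462 against 0.590 (log2 difference -0.35 ± 0.11), in 4 of 4 libraries (exact permutation test, p = 0.0286 each). Not divided by length, the values of Mef2c and Mef2d overlapped (log2 difference -0.03, p = 0.514, exact permutation test). Mef2b stood at 1, 2, 0 and 6. Hdac7, the class IIa deacetylase gene known from ECs as a partner of Mef2 factors, averaged 5019 ± 165, or 1.01 per base. It was above Hdac5, Hdac4 and Hdac9, which had 0.217, 0.142 and 0.0341 per base.

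The 10 factors varied between libraries about as much as other genes of their level. The SD of log2 values was 0.02 for Lmo2, 0.03 for Sox7 and Sox18, 0.06 for Sox17, 0.09 for Nr2f2, Gata2 and Mef2c, 0.19 for Tal1, 0.41 for Lyl1 and 0.72 for Nr2f1, against a median of 0.16 over detected genes. Against a trend of this SD on the mean, 0 of the 10 exceeded a robust z of 3, against 0.160% of detected genes, and their z ran from -1.38 for Lmo2 to 0.82 for Mef2c. The larger spread of Tal1, Lyl1 and Nr2f1 thus went with their lower values, where the trend is higher.

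**Figure D4:**
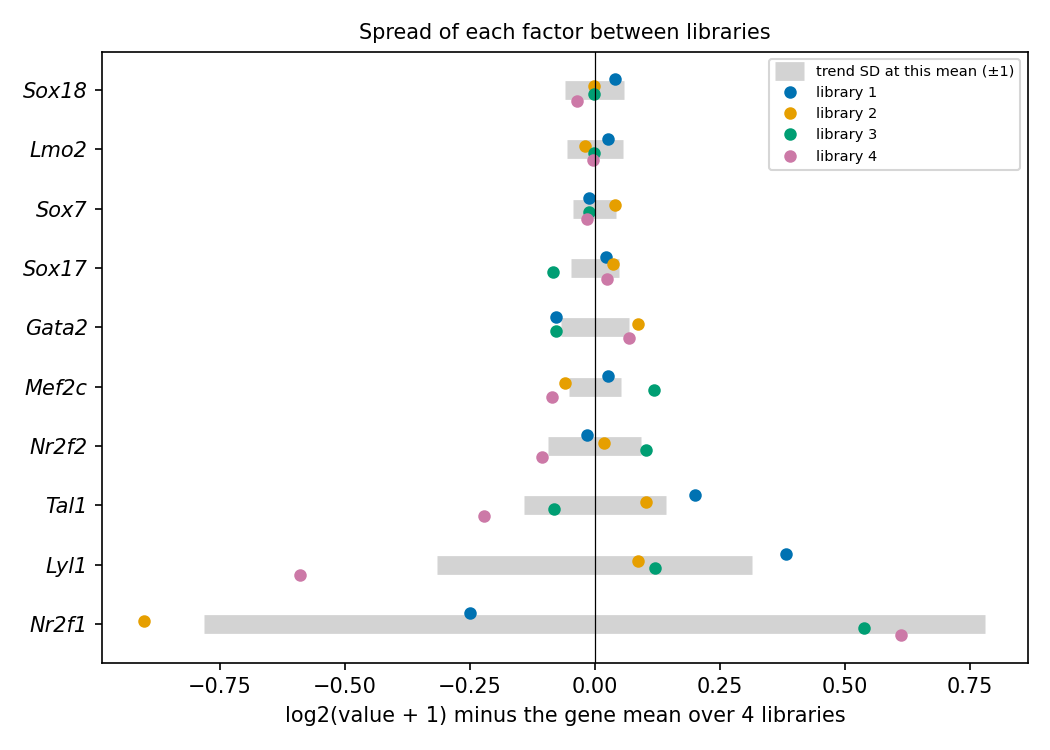
Difference of log2(value + 1) in each library (coloured points) from the mean of that gene over the 4 libraries, with the SD that the trend over detected genes gives at the same mean (grey bar, plus and minus 1). The spread widens from Sox18 and Lmo2 to Lyl1 and Nr2f1, and library 4 lies lowest for Lyl1 and Tal1.

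Library 4 was the lowest library for 6 of the 10 factors, against 33.0% of detected genes, and the highest for 1, Nr2f1, against 30.6%. Library 1 was the lowest for 1 (Gata2, level with library 3), against 22.1%, and the highest for 4, against 21.2%. The 6 were Sox18, Sox7, Mef2c, Nr2f2, Tal1 and Lyl1. With library sizes set by median-of-ratios factors the count was 5. For Sox18, Sox7, Mef2c and Nr2f2 library 4 lay close to the mean of libraries 1 to 3, with log2 ratios between -0.14 and -0.02. It was -0.30 for Tal1 and -0.79 for Lyl1, at the 12.8th and 3.55th percentile of detected genes, whose median was -0.01. The venous list had 6 of 8 genes lowest in library 4, the arterial list 8 of 14 and the endothelial list 10 of 16, with median log2 ratios of -0.05, -0.19 and -0.03. The photoreceptor list had all 11 genes highest there, with a median log2 ratio of 1.58. The part of other retinal cells in the lower Lyl1 and Tal1 values of library 4 was not tested. Without library 4, the log2 difference of Tal1 over Lyl1 was 0.68, against 0.80 with all 4 libraries.

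The annotation behind the 568 genes is not complete, since it leaves out Sox13, at 1.08 per base. Ranked per base among these 568, Sox18, Lmo2, Sox7 and Sox17, 4 of the 10 factors, were among the top 56. Their ranks were 2, 5, 12 and 46. Gata2 ranked 90, Mef2c 126, Nr2f2 234, Tal1 344, Lyl1 411 and Nr2f1 555. The gene nearest in level to each factor was sought among 186 genes of the lists used here, by the root mean square difference of log2 level per base over 4 libraries. The nearest were Fli1 for Sox18 (0.01), Cdh5 for Sox7 (0.03), Slc38a5 for Lmo2 (0.03), Nrp2 for Nr2f2 (0.04), Sox4 for Sox17 (0.05), Mef2d for Gata2 (0.09), Id2 for Mef2c (0.12) and Nr2c2 for Tal1 (0.15). For Lyl1 and Nr2f1 the nearest were Itga2b and Zfpm2, at 0.42 and 0.70, distances about as large as the spread of these genes between libraries. This measure compares levels in 1 group and says nothing of shared control.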

How the data were processed

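RNA from CD31-positive, CD45-negative retinal ECs of P6 mice was sequenced in 4 libraries. A stranded single-end preparation is named in an account that begins with RNA from human umbilical vein ECs. The deposited values are a score with no fixed range, namely read counts per Ensembl gene that the authors normalised and rounded to whole numbers. The normalisation, aligner, genome build, annotation and treatment of duplicates are not given in the sources used here, where FastQC is the only tool in the submitters' notes. Gene positions equalled those of GRCm38 (GENCODE M21) for 26564 of 26789 identifiers. Of 26834 rows the highest row per symbol was kept. Values were compared as log2((value + 1)/exonic bases), with lengths for 99.9% of detected genes, by exact two-sided permutation tests, adjusted by Benjamini-Hochberg over all pairs of detected genes. Spread was the SD of log2(value + 1) against a lowess trend (fraction 0.2), tested on simulated data. Named were the 10 factors, detected family and partner genes, the 3 highest genes of other lists, defining markers under 10, overlapping genes and nearest genes, plus Actb, Cldn5 and Prox1, chosen after their values were seen. Members and lists were chosen with earlier results of these data known. Of all listed genes, 12 were not analysed here. Python 3.11.15, numpy 2.4.6, pandas 2.3.3, scipy 1.17.1 and statsmodels 0.14.6 were used.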

Additional observations from a re-analysis of the deposited data

Results flagged for a closer look

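Of 82 per-library values examined, 7 had 1 library set far from the other 3, where chance gives about 4.1. For 2 SoxF genes these were Sox7, highest in library 2 at 4830, and Sox17, lowest in library 3 at 3640, both small shifts within 1.09-fold of their other libraries. The others were Hdac5, highest in library 4 at 1556, and with it the median log2 value of the class IIa deacetylase list, highest at 10.42, and the low genes Lmo3, lowest in library 2 at 5, Id4, lowest in library 2 at 29, and Zfpm2, highest in library 3 at 43. No cause was tested.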

How the results depend on the processing

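Not divided by length, 2 SoxF orders turned, Sox17 over Sox18 with a log2 difference of 0.49 and Sox7 over Sox18 with 0.77, as did Sox17 over Sox4 (-0.20), Sox18 over Sox4 (-0.69), Sox18 over Sox13 (-0.55), Nr2f2 over Nr2f6 (0.0085) and Nr2f2 over Nr2e3 (0.12). On that undivided scale Sox17 and Sox13 (-0.06) and Mef2c and Mef2d (-0.03) came to overlap without turning. With the longest transcript as length, Sox17 over Sox13 turned (0.13), Sox17 and Sox4 no longer overlapped (0.37), and Nr2f2 and Nr2c1 did overlap (0.27). Pairing the values by library in an exact sign-flip test left 0 of 9 neighbours, 0 of 45 pairs and 0 of 51 family pairs past 0.05, because with 4 libraries the smallest p this test can give lies above that threshold. This test uses the same log2 differences, so it could not change them. They were -0.85 for Sox17 over Sox18, -0.60 for Sox17 over Sox7, -0.26 for Sox7 over Sox18, 6.38 for Nr2f2 over Nr2f1 and 0.80 for Tal1 over Lyl1. Rescaling by size factors or a pseudocount of 10 kept the direction of these 5 pairs and the absence of overlap. The count of neighbours stayed at 9. Leaving out a library could not change these results, because values apart in 4 libraries stay apart in any 3. With 3 libraries the smallest p is 0.1. Of the family pairs, Sox17 and Sox4 also no longer overlapped without library 3 (log2 difference 0.05). The reads behind each value are unknown, so the precision of low genes such as Nr2f1 and Lyl1 cannot be stated.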
